A study of Arabidopsis thaliana with 39 samples.

Results

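The JASMONATE ZIM-DOMAIN (JAZ) repressors JAZ1 to JAZ10 of Arabidopsis thaliana were taken by their locus identifiers from every RNA-seq gene table of the series. All 10 were found among the 33602 genes of the heat tables and among the 64790 genes and transposable elements of the Ler and lug tables. The members were taken by name and not by a filter on their values. They and the gene lists used below were chosen with earlier results of these data known. The study asked what the loss of the MORC ATPases, proteins that compact chromatin, does to transcription factor binding and to gene expression, with and without heat.

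The heat series holds 16 libraries of the Columbia-0 (Col-0) accession. Wild type (WT) and morchex, which carries mutations in 6 MORC genes (morc1-2, morc2-1, morc4-1, morc5-1, morc6-3 and morc7-1), were sampled before heat (T0), after 0.5 h at 37 °C (T30) and 48 h after the return to normal temperature (T48). WT has 3 libraries at each time, and morchex has 3 at T0, 2 at T30 and 2 at T48. A separate set holds 3 libraries of the Landsberg erecta (Ler) accession and 3 of the lug mutant in that accession, which lacks normal function of the corepressor LEUNIG (LUG). The labels do not name the lug allele. All plants were 5 to 6 weeks old per the labels, and the tissue is given as floral tissue. The labels do not say whether replicates came from separate plants, so the p-values below measure the spread between these libraries only.

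JAZ proteins hold the jasmonate pathway off. They bind MYC2 and related transcription factors at jasmonate-responsive genes and recruit the corepressor TOPLESS (TPL), most of them through the adaptor NINJA. When jasmonoyl-isoleucine accumulates after wounding, herbivory or in developing flowers, the F-box receptor COI1 binds JAZ proteins and they are degraded. The freed MYC factors then transcribe the JAZ genes again, so JAZ transcripts are widely used as an early readout of jasmonate signalling and form a negative feedback loop. JAZ1, JAZ2, JAZ5 and JAZ6 carry the canonical degron. JAZ3, JAZ4 and JAZ9 form a clade of their own, and JAZ9 also binds DELLA proteins of the gibberellin pathway. JAZ7 and JAZ8 carry an EAR motif that binds TPL without NINJA and lack the canonical degron, which makes JAZ8 a stable repressor. JAZ10 is spliced in several ways, and some of its isoforms resist degradation.

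MYC factors bind the G-box, the hexamer CACGTG. The promoters of the 4 members that hold this hexamer within 250 bp before the annotated start are shown. Of these, 3 (JAZ2, JAZ3 and JAZ7) also carry TPL peaks in WT, described further on. Within morchex, JAZ7 and JAZ8 were called higher at T48 than at T0, a call that JAZ8 lost in 12 of 26 alternatives. JAZ7 was called higher at T48 than at T0 in WT too, and neither gene was called between morchex and WT at T48. JAZ1 and JAZ10, which were also called in some comparisons, hold no G-box in this window. Each is written 5′ to 3′ on the strand of its gene, from the TAIR10.1 RefSeq assembly, and capitals mark the G-box. The windows are chr1:28150447-28150696 on the minus strand for JAZ2, chr3:6119457-6119706 on the plus strand for JAZ3, chr2:14572780-14573029 on the plus strand for JAZ7 and chr1:10596102-10596351 on the plus strand for JAZ8.
JAZ2 promoter: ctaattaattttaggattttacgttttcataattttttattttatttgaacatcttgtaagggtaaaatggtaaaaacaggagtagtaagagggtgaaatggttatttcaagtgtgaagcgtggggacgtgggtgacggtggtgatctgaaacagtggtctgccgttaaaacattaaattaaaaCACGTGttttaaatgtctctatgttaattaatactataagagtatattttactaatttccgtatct
JAZ3 promoter: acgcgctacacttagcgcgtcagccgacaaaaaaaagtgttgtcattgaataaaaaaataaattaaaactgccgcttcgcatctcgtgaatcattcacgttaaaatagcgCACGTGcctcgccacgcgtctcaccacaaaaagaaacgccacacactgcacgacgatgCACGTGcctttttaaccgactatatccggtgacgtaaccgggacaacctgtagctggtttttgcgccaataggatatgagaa
JAZ7 promoter: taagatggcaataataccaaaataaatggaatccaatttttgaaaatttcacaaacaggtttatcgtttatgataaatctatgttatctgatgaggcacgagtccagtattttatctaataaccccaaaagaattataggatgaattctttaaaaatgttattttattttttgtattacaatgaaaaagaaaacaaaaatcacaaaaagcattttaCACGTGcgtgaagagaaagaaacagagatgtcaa
JAZ8 promoter: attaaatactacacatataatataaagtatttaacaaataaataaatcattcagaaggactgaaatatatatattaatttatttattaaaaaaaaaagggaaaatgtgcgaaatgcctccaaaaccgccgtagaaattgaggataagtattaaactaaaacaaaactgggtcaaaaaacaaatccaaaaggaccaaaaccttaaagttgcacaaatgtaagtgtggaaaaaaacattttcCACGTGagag
The G-box begins 66 bp before the start of JAZ2, 140 and 82 bp before that of JAZ3, 34 bp before that of JAZ7 and 10 bp before that of JAZ8. Over 250 bp, 4 of 10 members and 5.83% of 32833 gene promoters held a G-box, searched on both strands. Over 1000 bp, 8 of 10 members and 13.9% of promoters held one. The related T/G-box, AACGTG on both strands, was found within 250 bp in JAZ3, JAZ5 and JAZ6 (7.29% of promoters) and within 1000 bp in 8 of 10 members (23.5%). A heat shock element core, GAANNTTC (both strands, which may overlap), was found within 250 bp in 0 of 10 members (9.29% of promoters) and within 1000 bp in 2 (32.6%). These are matches of letters in a window and not measured binding sites.

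The libraries held between 8.61 and 25.1 Mcounts (1 Mcount is 1e6 estimated counts). MORC1 and MORC6 were lower in all 7 morchex libraries (1.41 to 2.86 and 0.43 to 1.29 TPM, a relative abundance per transcript length) than in all 9 WT libraries (4.62 to 8.09 and 1.62 to 3.74 TPM). MORC2 and MORC7 had lower medians in morchex with overlapping ranges, MORC4 had a higher median (11.5 against 3.49 TPM), and MORC5 was at or near 0 in both. LUG lay between 6.75 and 7.47 TPM in lug and between 19.8 and 21.4 TPM in Ler. The labelled tissue was not borne out by its defining markers: over the 22 libraries the floral identity genes AP1, AP3 and SEP2 did not exceed 0.65 TPM, PI did not exceed 2.03 TPM, 7 of 7 tapetum genes stayed at or below 0.25 TPM, and the leaf photosynthesis gene RBCS1A lay between 21179 and 40635 TPM. Of the other floral genes, AG, SEP1 and SEP3 were detected, at up to 3.77, 5.83 and 90.8 TPM.

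JAZ9 (AT1G70700, chr1:26654529-26657350) was the most abundant member in every group of libraries by mean TPM. Its range overlapped that of JAZ1 in WT at T30 and that of JAZ6 in Ler and lug. The means of JAZ9 and JAZ6 were 62.7 and 60.3 TPM in Ler and 42.4 and 37.4 TPM in lug. JAZ6 was above JAZ9 in Ler replicates 2 and 3 and in lug replicates 1 and 3. In WT at T0 the JAZ9 libraries stood at 566, 378 and 730 TPM, a mean of 558 ± 176 (SD, n = 3). It alone made up 43.3 to 75.1% of the summed JAZ TPM in each heat library, and 17.58 to 43.6% in the Ler and lug libraries. JAZ6 (AT1G72450, chr1:27273968-27276562) followed at 76.9 ± 14.4 TPM, then JAZ2 (AT1G74950, chr1:28148574-28150446) at 47.7 ± 13.8, JAZ1 (AT1G19180, chr1:6621777-6623668) at 38.8 ± 12.95 and JAZ3 (AT3G17860, chr3:6119707-6123044) at 20.3 ± 4.5. JAZ5 (AT1G17380, chr1:5955155-5957511) stood at 11.3 ± 6.1 TPM and JAZ7 (AT2G34600, chr2:14573030-14573952) at 4.76 ± 2.36 TPM. The lowest members were JAZ10 (AT5G13220, chr5:4218786-4221077) at 2.24 ± 0.90 TPM, JAZ4 (AT1G48500, chr1:17931390-17934662) at 0.77 ± 0.07 TPM and JAZ8 (AT1G30135, chr1:10596352-10597341) at 0.63 ± 0.21 TPM. In this order, JAZ2 and JAZ1, JAZ3 and JAZ5, JAZ5 and JAZ7, JAZ7 and JAZ10, and JAZ4 and JAZ8 had overlapping ranges, and the other neighbours did not. JAZ9 is a gene of 3 annotated transcripts with 6 to 8 exons, JAZ10 has 7 transcripts with 3 to 5 exons, and the short genes JAZ7 and JAZ8 have 1 transcript each with 2 and 3 exons. The gene tables sum over transcripts, so the isoforms of JAZ10 were not separated here.

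**Figure D1:**
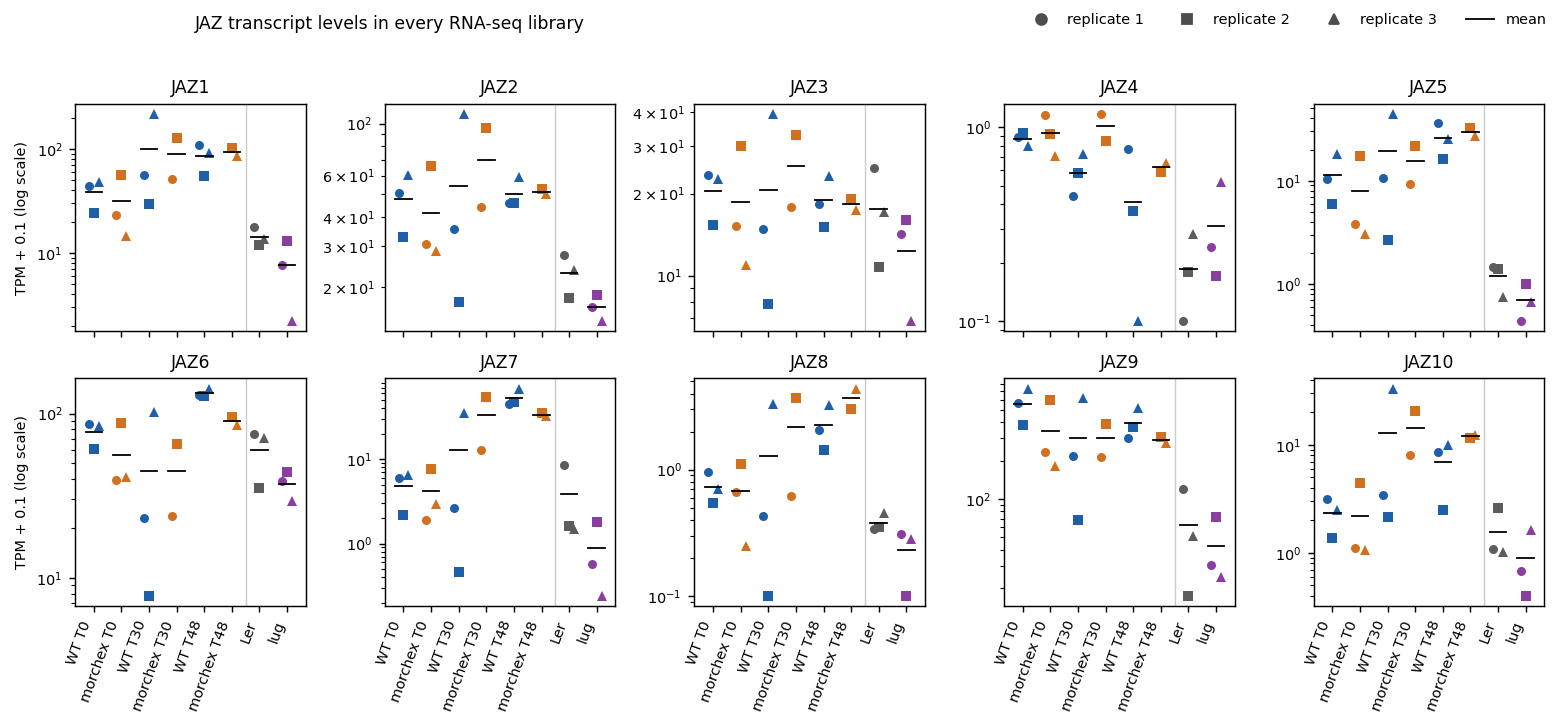
TPM plus 0.1 on a log scale for each JAZ gene in all 22 libraries, with WT in blue, morchex in orange, Ler in grey and lug in purple, a marker shape for each replicate number and a line at the group mean. In WT at T30 replicate 3 lies above the other libraries of its group for all 10 genes, and JAZ7 at T48 lies above T0 in both genotypes.

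In the heat series the JAZ transcripts differed between replicates of one group far more than most genes did. The SD of log2 CPM (counts scaled to library size) within groups was 0.66 to 1.63 for the 10 members, against a median of 0.22 over all tested genes, which placed the members between the 89.5 and 99.3 percentiles. These percentiles were not matched for level, and counting error adds to the SD of low genes. The variation beyond counting error that edgeR estimated was 0.224 for JAZ4 and 0.375 to 0.774 for the other members. In Ler and lug the tested members lay between the 52.3 (JAZ2) and 96.5 (JAZ9) percentiles. The same libraries were high or low for nearly all members at once. WT T30 replicate 3 was the highest of its group for 10 of 10 members, while it was the highest for 32.7% of 17371 genes with a mean of at least 1 TPM. WT T30 replicate 2 was the lowest for 9 of 10 members, against 40.4% of genes. The ratio of these libraries in TPM was 97.8 for JAZ7 (from 2 counts in the lower one), 16.9 for JAZ5, 15.9 for JAZ10, 13.4 for JAZ6, 9.15 for JAZ9, 7.39 for JAZ1, 6.39 for JAZ2 and 5.06 for JAZ3. At T0, morchex replicate 2 was the highest of its group for 9 of 10 members (41.2% of genes) and WT replicate 2 the lowest for 9 (26.6% of genes). At T30, morchex replicate 2 was the higher library for 9 of 10 members (39.9% of genes).

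Many genes of the same pathway moved with the members in WT at T30 and in morchex T0 replicate 2. The match was partial in WT T0 replicate 2 and morchex T30 replicate 2. Of the genes with a mean of at least 1 TPM, WT T30 replicate 3 was the highest of its group for 13 of 16 jasmonate biosynthesis genes, 7 of 7 genes of jasmonate turnover and 9 of 9 jasmonate output genes, and for 1 of 7 genes of perception and corepression. WT T30 replicate 2 was the lowest for 16 of 16 biosynthesis genes. The heat markers had another order, with replicate 1 the lowest in WT at T30 for 6 of 6, while in morchex at T30 replicate 2 was the higher one for 6 of 6. In morchex at T0, replicate 2 was the highest for 13 of 16 biosynthesis genes, 6 of 7 touch and wound markers and 5 of 6 heat markers. WT T0 replicate 2 was the lowest for 8 of 16 biosynthesis and 5 of 9 output genes (26.6% of all genes). It was the highest for 3 genes of each list (34.9% of all genes). At T30, morchex replicate 2 was the higher library for 10 of 16 biosynthesis and 8 of 9 output genes (39.9% of all genes). Because the tissue is bulk, fewer cells of a type and less RNA per cell cannot be told apart here, and what sets these libraries apart was not tested. Values without single libraries stand beside the calls below that they change.

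**Figure D2:**
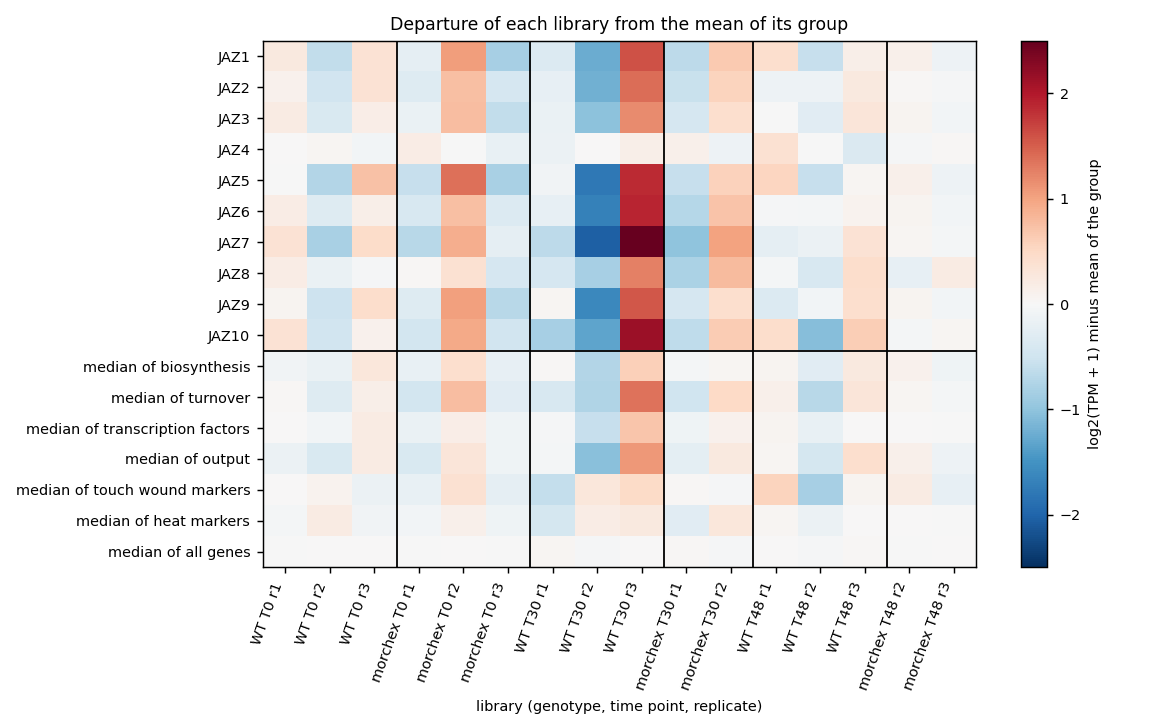
Log2(TPM + 1) of each heat library minus the mean of its group, with red above and blue below, for each JAZ gene (upper block) and for the median of other gene lists and of all genes (lower block). The columns of WT T30 replicate 3 and morchex T0 replicate 2 are red for nearly all JAZ genes, and the row of all genes is near 0.

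The comparison of morchex with WT asked whether the JAZ genes depend on MORC proteins at each time. No member passed the test at any time. The test was edgeR's quasi-likelihood test over 18827 genes, and a gene was called when its Benjamini-Hochberg adjusted p was under 0.05 and its fold change over 2. At T0, 0 of 10 members were called, against 0.292% of all tested genes, and 0 had an unadjusted p under 0.05 in edgeR. Their log2 fold changes lay between -0.75 and 0.10, with a median of -0.27 (all genes -0.01). The most different was JAZ9, whose libraries stood at 234, 599 and 182 TPM in morchex and at 566, 378 and 730 TPM in WT. The groups overlapped, since morchex replicate 2 was above WT replicates 1 and 2, and the difference was -0.75 ± 0.57 (SE) with an adjusted p of 0.84 in edgeR. Without morchex T0 replicate 2 the median over the members was -0.97, with estimates from -1.73 to 0.14, and without morchex T0 replicate 3 it was -0.01, with 0 members called in both.

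At T30, 0 of 10 members were called between morchex and WT (0.59% of all tested genes) and 0 had an unadjusted p under 0.05. Their median log2 fold change was 0.15 (all genes 0.01). JAZ7 had the highest estimate, 1.33 ± 0.88 with an adjusted p of 0.416 in edgeR, with 12.6 and 53.8 TPM in morchex and 2.57, 0.36 and 35.2 TPM in WT. JAZ4, at 1.07 and 0.75 TPM in morchex and 0.34, 0.48 and 0.63 TPM in WT, was higher in both morchex libraries without overlap (26.9% of all tested genes) and was not called (0.83 ± 0.59). Without WT T30 replicate 3, JAZ7 was called higher in morchex (4.25, adjusted p of 0.0275 in edgeR), as the 1 member called. At T48, 0 of 10 were called (6.21% of all tested genes) and 0 had an unadjusted p under 0.05, with a median of -0.06 (all genes 0.02). JAZ6 and JAZ7 were lower in both morchex libraries than in all WT libraries at T48 (18.3% of all tested genes), and JAZ10 was higher (40.4% of all tested genes), without passing the test. DESeq2 also called 0 members at each of these times, but gave no adjusted p for JAZ7 and JAZ10 at T0 and T48, nor for JAZ4, JAZ7, JAZ8 and JAZ10 at T30.

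Whether the response to heat differed between the genotypes was tested as an interaction. For T30 against T0, 0 of 10 members were called (0.00531% of all tested genes) and 0 had an unadjusted p under 0.05 in edgeR. All 10 estimates were above 0, with a median of 0.45 (all genes 0.01), that is, toward a more positive change in morchex. For JAZ4, JAZ6 and JAZ9 the estimated change in WT was itself negative (-0.34, -0.41 and -0.51), so the direction there is not a larger rise. Without WT T30 replicate 3 the median was 1.67 with 10 of 10 above 0, without WT T30 replicate 2 it was 0.04 with 5 of 10 above 0, and without morchex T30 replicate 2 it was -0.40 with 3 of 10 above 0. For T48 against T0, 0 of 10 were called (3.7% of all tested genes), again with 0 under the unadjusted 0.05, and the median was 0.25 (all genes 0.01). DESeq2 called 0 in both, with no adjusted p for JAZ7 and JAZ10. The standard errors of the interactions ran from 0.66 to 1.54 on the log2 scale. A call in one genotype and not in the other, below, is not a tested difference between them.

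The comparison of T30 with T0 asked what 0.5 h at 37 °C did. The T30 and T48 comparisons of a genotype share its T0 libraries. The heat treatment itself was plain, since 6 of 6 heat shock markers rose in each genotype, their summed level going from 11.1 to 14.1 TPM at T0 to 9520 to 14794 TPM at T30 in WT. In WT, JAZ1 and JAZ10 were called higher, 2 of 10 members against 6.21% of all tested genes called up. JAZ10 stood at 3.04, 1.27 and 2.41 TPM at T0 and at 3.31, 2.07 and 32.9 TPM at T30. Only replicate 3 was above the T0 range by a wide margin, and replicate 2 lay within it. The log2 fold change was 2.87 ± 0.93 with an adjusted p of 0.0232 in edgeR, and without WT T30 replicate 3 it was 0.69 with an adjusted p of 0.495. JAZ1 stood at 44.0, 24.1 and 48.4 TPM at T0 and at 55.7, 29.3 and 217 TPM at T30. Again only replicate 3 was far above the T0 range and replicate 2 was within it. The change was 1.76 ± 0.63 with an adjusted p of 0.0375 in edgeR, and without that library it was 0.53 with an adjusted p of 0.446. The call for JAZ10 was also lost without WT T0 replicate 2 or 3, and the call for JAZ1 without any one of the 3 WT T0 replicates. No member was called lower, against 7.2% of all tested genes. That too rests on WT T30 replicate 3, because without it JAZ6 and JAZ9 were called lower in place of the calls for JAZ1 and JAZ10. JAZ9 stood at 566, 378 and 730 TPM at T0 and at 218, 67.8 and 621 TPM at T30, and its estimate went from -0.51 to -1.58 with an adjusted p of 0.0298. JAZ6 stood at 86.6, 60.4 and 83.7 TPM at T0 and at 23.1, 7.66 and 103 TPM at T30, and its estimate went from -0.41 to -1.91 with an adjusted p of 0.00674.

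In morchex at T30, JAZ7 and JAZ10 were called higher, 2 of 10 members against 5.59% of all tested genes called up. JAZ7 stood at 1.80, 7.49 and 2.88 TPM at T0 and at 12.6 and 53.8 TPM at T30. Both T30 libraries were above all T0 libraries, as they were for 13.1% of all tested genes. Its log2 fold change was 3.42 ± 0.96 with an adjusted p of 0.0147 in edgeR. JAZ10 stood at 1.01, 4.31 and 0.97 TPM at T0 and at 7.89 and 20.5 TPM at T30, with no overlap. Its change was 3.18 ± 0.93 with an adjusted p of 0.0183 in edgeR. Both calls were lost without morchex T30 replicate 2 (1.96 with an adjusted p of 0.244 for JAZ7 and 2.27 with an adjusted p of 0.169 for JAZ10) and without morchex T0 replicate 1 or 3. JAZ1 had a change of 1.84 ± 0.67 with an adjusted p of 0.05003 in edgeR and JAZ8 had one of 2.22 ± 0.98 with an adjusted p of 0.1, and neither was called. At an unadjusted p under 0.05 they would have made 4 of 10, against 12.3% of all tested genes in either direction. Without WT T30 replicate 3, which enters this comparison only through the shared estimate of spread, 5 members were called higher (JAZ1, JAZ2, JAZ7, JAZ8 and JAZ10). The spread of all other genes is estimated anew in such a fit too. No share of all tested genes is given for fits without single libraries, so their counts are not read as particular to the members. Without morchex T0 replicate 2, JAZ1 was called as well (2.55, adjusted p of 0.0207). The median change over the 10 members at T30 was 0.86 in WT (all genes -0.03) and 1.198 in morchex (all genes -0.01). In morchex the estimates of JAZ6 and JAZ9 were -0.01 ± 0.67 and 0.13 ± 0.64. On the TPM scale the median gene itself shifted by -0.33 at T30 in WT and by -0.23 in morchex, and by 0.17 and 0.29 at T48.

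The comparison of T48 with T0 asked what remained after recovery. JAZ7 was the member called in both genotypes. In WT it stood at 5.88, 2.05 and 6.34 TPM at T0 and at 44.6, 47.4 and 67.7 TPM at T48. Each T48 library was above each T0 library, which held by any margin for 36.7% of all tested genes. Its log2 fold change was 3.31 ± 0.94 with an adjusted p of 0.0118 in edgeR, and it was the single member called of 10, against 9.39% of all tested genes called up. The call was lost, at an adjusted p of 0.0506, without WT T0 replicate 2, and it held in the other 24 of the 25 alternatives that gave JAZ7 an adjusted p. JAZ1, JAZ6 and JAZ8 were also above their T0 range in all 3 libraries but were not called (adjusted p of 0.258, 0.467 and 0.263 in edgeR). JAZ4, at 0.79, 0.83 and 0.70 TPM at T0 and 0.67, 0.27 and 0.00 TPM at T48, had a change of -1.52 ± 0.64 with an adjusted p of 0.075, from 11 counts or fewer in each library. Its T48 libraries lay below its T0 libraries, as 13.8% of all tested genes did, and with JAZ7 it made 2 of 10 members at an unadjusted p under 0.05 (14.8% of all tested genes in either direction). Without WT T48 replicate 1, JAZ4 was called lower (-2.76, adjusted p of 0.0128).

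In morchex, 3 of 10 members were called higher at T48, against 13.8% of all tested genes called up. JAZ7 stood at 34.8 and 32.1 TPM, above the T0 range of 1.80 to 7.49 TPM, with a change of 2.78 ± 0.96 and an adjusted p of 0.0233 in edgeR. JAZ10 stood at 11.5 and 12.4 TPM, above the T0 range of 0.97 to 4.31 TPM, with a change of 2.31 ± 0.94 and an adjusted p of 0.0493. JAZ8 stood at 0.57, 1.00 and 0.15 TPM at T0 and at 2.94 and 4.26 TPM at T48, with a change of 2.35 ± 0.94 and an adjusted p of 0.046. For all 3 genes the groups did not overlap, which held upward for 55.7% of all tested genes. The same was true of JAZ1 and JAZ5, which were not called. JAZ4 lay below its T0 range in both libraries (22.5% of all tested genes) with an estimate of -1.01 ± 0.56 and was not called. The calls lie close to the threshold. That of JAZ7 was lost without morchex T0 replicate 1 or 3 or morchex T48 replicate 2 or 3, at an adjusted p of up to 0.0852, and those of JAZ8 and JAZ10 were lost without any of these, any WT T0 replicate or WT T48 replicate 1 or 3. Without WT T30 replicate 3, or without morchex T0 replicate 2, 5 members were called (JAZ1, JAZ5, JAZ7, JAZ8 and JAZ10), again with no share of all tested genes given for those fits. The median change over the members at T48 was 0.76 in WT (all genes 0.01) and 0.82 in morchex (all genes 0.03). JAZ9, at 303, 366 and 513 TPM in WT and 304 and 273 TPM in morchex, had negative estimates of -0.70 ± 0.57 and -0.55 ± 0.65 that did not pass the test, and its share of the summed JAZ TPM was 43.3 to 55.0% in WT at T48 against 71.5 to 75.1% at T0.

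**Figure D3:**
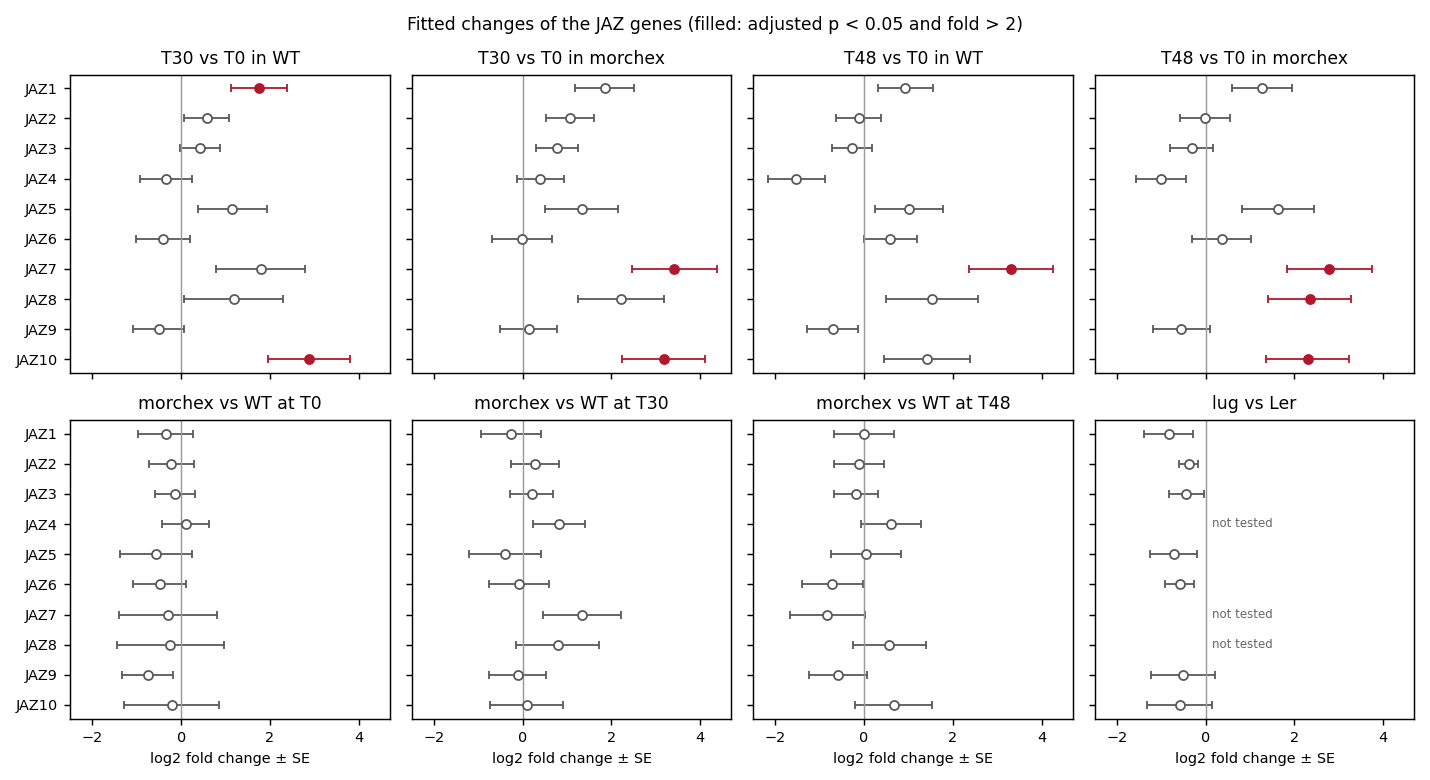
Log2 fold change of each JAZ gene with its standard error from edgeR in 8 comparisons, with the members called drawn as filled red points. JAZ7 is filled in both T48 panels and in the T30 panel of morchex, and no point is filled in the panels of morchex against WT or lug against Ler.

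Other gene lists also changed at T48, where JAZ7 was the only member called in both genotypes. All 7 touch and early wound markers (TCH2, TCH3, TCH4, WRKY40, WRKY33, ZAT10 and ZAT12) were called higher at T48 in both genotypes, against 9.39% of all tested genes in WT and 13.8% in morchex. Their summed level was 31.1 to 42.1 TPM at T0 and 466 to 908 TPM at T48 in WT, and 34.6 to 49.9 TPM and 643 to 802 TPM in morchex, and no marker was at 0 in any library. Genes of green tissue moved the other way, with 3 of 4 called lower in WT (4.3% of all tested genes) and 4 of 4 in morchex (12.4% of all tested genes) at T48, and summed levels of 53096 to 59374 TPM at T0 and 34014 to 36661 TPM at T48 in WT. Of these markers, LHCB1.3 in WT was below the fold threshold without WT T0 replicate 2 (-0.96) or WT T48 replicate 3 (-0.91), TCH2 at T48 in morchex without morchex T0 replicate 3 (0.99) or T48 replicate 3 (0.88), and TCH3 at T30 in morchex lost its call without morchex T0 replicate 1 or T30 replicate 1 (adjusted p of 0.0674 and 0.0904). The part of these marker genes in the JAZ values was not tested. At T30, ZAT10 and ZAT12 were called higher in both genotypes and TCH3 in morchex, while the summed level of the list was 36.9 to 106 TPM in WT.

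The rest of the jasmonate pathway was read from lists of its parts. Among the biosynthesis genes, 16 of 18 were tested. At T30, LOX3 and LOX4, lipoxygenases that start jasmonate synthesis, were called higher in WT (2.84 ± 0.84 and 2.42 ± 0.87 on the log2 scale) and in morchex (2.69 ± 0.87 and 2.83 ± 0.90), where the allene oxide cyclase genes AOC1 and AOC3 were called higher as well (1.68 ± 0.60 and 1.99 ± 0.61). In WT the T30 and T0 ranges of LOX3 and LOX4 overlapped, and without WT T30 replicate 3 their estimates were -0.07 and -0.02 with adjusted p of 0.864 and 0.985. The WT call of LOX4 was also lost without any one WT T0 replicate. In morchex the T30 calls of LOX3, LOX4, AOC1 and AOC3 were each lost without morchex T0 replicate 1 or 3, and those of LOX3, LOX4 and AOC1 also without morchex T30 replicate 2, where LOX4 stood at 1.93 with an adjusted p of 0.221. Those of LOX3, AOC1 and AOC3 were lost without morchex T30 replicate 1 as well, that of LOX3 also without morchex T0 replicate 2, and that of AOC1 in 10 of the 16 fits. At T48, AOC3 was called higher in both genotypes (4.20 ± 0.60 and 3.93 ± 0.57) and LOX4 in morchex (3.04 ± 0.90), calls that held without any 1 of the 16 libraries. AOC4 was called lower in morchex (-1.12 ± 0.28), a call lost without morchex T0 replicate 2 (-0.90). JMT, which methylates jasmonic acid, was called lower in morchex than in WT at T48 (-1.13 ± 0.37), a call lost without any one of the 5 T48 libraries. RSEM splits reads between similar copies, so values within the AOC, VSP and PDF1 families are uncertain.

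Of 10 genes of jasmonate turnover, 9 were tested. JOX4, an oxygenase that hydroxylates jasmonate, rose from 2 counts over the WT T0 libraries to 20 at T30, a ratio of 11.2 (exact 95% counting interval 2.73 to 99) with overlapping ranges, and to 128 at T48, a ratio of 56.8 (15.4 to 474). In morchex JOX4 rose from 3 counts to 115 at T30, a ratio of 51 (17 to 251), and to 614 at T48, a ratio of 168 (57.3 to 818). CYP94B1 and CYP94B3, which oxidize jasmonoyl-isoleucine, were called higher in morchex at T30. CYP94B1 went from 2 counts to 170, a ratio of 113 (30.8 to 942), and CYP94B3 from 0 counts to 134, which was at least 59.4-fold higher against 3 counts over the T0 libraries. CYP94C1 of the same family was called higher in morchex at T30 (2.16 ± 0.58) and at T48 (2.61 ± 0.57) and in WT at T48 (1.93 ± 0.61). JOX3 was called higher at T48 in WT (4.61 ± 0.82) and in morchex (6.29 ± 0.80), where the amidohydrolase gene IAR3 was also called higher (2.53 ± 0.74). The sulfotransferase gene ST2A was called lower at T30 in WT (-2.82 ± 0.87) and in morchex (-2.27 ± 0.77). Between the genotypes, CYP94B1 was called higher in morchex at T30 (3.20 ± 0.65, adjusted p of 0.0278) and JOX4 at T48 (1.59 ± 0.49, adjusted p of 0.0289). The interactions called 0 of the 9 turnover genes, against 0.00531% of all tested genes for T30 and 3.7% for T48. The calls of JOX3 and JOX4 at T48 in both genotypes, of CYP94C1 at T48 in morchex and of JOX4, CYP94B1 and CYP94B3 at T30 in morchex held without any 1 of the 16 libraries. The call of JOX4 at T30 in WT was lost without WT T30 replicate 3 and in 9 other fits without 1 library. That of CYP94C1 at T30 in morchex was lost without morchex T30 replicate 2 or T0 replicate 1 (down to 1.29), and at T48 in WT without WT T0 replicate 1 or 2 or WT T48 replicate 1 or 3. ST2A lost its call in WT without WT T30 replicate 1 or 2 and in morchex without morchex T0 replicate 2 or either T30 replicate. Between the genotypes, CYP94B1 lost it without morchex T30 replicate 1 or WT T30 replicate 2 (adjusted p of up to 0.154), and JOX4 without either morchex T48 replicate or WT T48 replicate 1 or 2 (up to 0.133). IAR3 lost it without morchex T48 replicate 2 (adjusted p of 0.0521).

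Of the 7 genes of perception and corepression, 0 were called in any comparison. The shares of all tested genes called stand with each comparison of the members. COI1, the receptor, had changes between -0.15 and 0.27 over the comparisons, and NINJA changes between -0.21 and 0.14. Among 15 transcription factors, 11 were tested in the heat series, and MYB21 and MYB24, the stamen factors that jasmonate releases, were too low to be tested. MYC2, the main target of the JAZ proteins, was not called in any comparison, with -1.07 ± 0.46 and an adjusted p of 0.0797 at T48 in WT. MYC5 was called lower at T30 in WT (-2.23 ± 0.57), at T48 in WT (-1.61 ± 0.51) and at T48 in morchex (-3.14 ± 0.59). MYC4 was called lower at T48 in WT (-1.22 ± 0.20). The ERF branch factor ORA59 was called lower at T30 in WT, with 15 counts over the T0 libraries and 1 count at T30, and higher at T48 in WT (1.89 ± 0.62) and in morchex (3.22 ± 0.59). ERF1 was called higher at T48, from 2 counts to 25 in WT, a ratio of 11.1 (2.77 to 96.7) with overlapping ranges, and from 2 counts to 42 in morchex, a ratio of 17.3 (4.49 to 147). JAM3, a repressor of the same targets as MYC2, was called higher at T48 in morchex (1.01 ± 0.16), at the fold threshold. The calls of MYC4 in WT, of MYC5 at T30 in WT and at T48 in morchex, and of ORA59 and ERF1 at T48 in morchex held without any 1 of the 16 libraries. That of MYC5 at T48 in WT was lost without WT T0 replicate 2 or WT T48 replicate 1 (adjusted p of up to 0.126), that of ORA59 at T48 in WT without WT T0 replicate 1 or 3 or WT T48 replicate 2 (up to 0.101), and that of ERF1 in WT without WT T0 replicate 1 or 3 or WT T48 replicate 1 or 3 (up to 0.108). The T30 call of ORA59 was lost in 5 of the 16 fits, those without WT T0 replicate 1 or 2, WT T30 replicate 1 or 3 or morchex T48 replicate 2, and that of JAM3 without morchex T0 replicate 1 or 2 or morchex T48 replicate 2, where its fold was under 2.

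Of 10 output genes, 8 were tested. TAT3, a tyrosine aminotransferase gene, was called higher at T48 in WT (6.03 ± 1.01) and in morchex (7.33 ± 1.10), and both calls held without any 1 of the 16 libraries. VSP2, a vegetative storage protein gene used as a marker of the MYC branch, was called lower at T48 in both genotypes (-1.68 ± 0.49 and -1.94 ± 0.57, with overlapping ranges in WT), and VSP1 in morchex (-1.63 ± 0.63). VSP2 lost its call in WT without WT T0 replicate 3 or WT T48 replicate 1 (adjusted p of up to 0.118) and in morchex without morchex T48 replicate 2 (0.0747), and VSP1 lost it without morchex T0 replicate 2 or either T48 replicate (up to 0.208). The calls of the defensin genes PDF1.2 and PDF1.3 in WT rest on WT T0 replicate 2. At T0 PDF1.2 stood at 53.8, 749 and 5.62 TPM and PDF1.3 at 6.46, 141 and 1.08 TPM, so that replicate 2 was far above the others. PDF1.2 and PDF1.3 were called lower at T30 (-4.91 ± 1.35 and -4.15 ± 1.28) and at T48 (-4.40 ± 1.25 and -6.13 ± 1.51). Without WT T0 replicate 2 no call was left, with -1.78 and -0.51 at T30 (adjusted p of 0.237 and 0.741) and -1.29 and -2.53 at T48 (0.369 and 0.125), and PDF1.3 lost its T30 call also without WT T30 replicate 1 or 2. In morchex against WT at T0, 8 of 8 output genes had negative estimates, with a median of -1.10 (all genes -0.01), and 0 were called (0.292% of all tested genes). WT T0 replicate 3 was the highest WT library for 5 of 9 output genes, VSP1 standing there at 4099 TPM against 1932 and 817 TPM, and without it the median was -0.54 with 8 of 8 still negative. VSP1 was called lower in morchex than in WT at T48 (-2.15 ± 0.65), a call lost without either morchex T48 replicate or WT T48 replicate 1 (adjusted p of up to 0.183). Of 9 other members of the TIFY family, JAZ13, a divergent JAZ with an EAR motif, was called higher at T30 in morchex (4.71 ± 0.90), and TIFY8, which has no Jas motif, was called lower at T48 in morchex (-1.32 ± 0.15).

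JAZ7 had the widest range of group means among the members, 3.75 on the log2 CPM scale, and the genes most like it across the 16 heat libraries were ERF-1 (AT4G17500, Pearson r = 0.94), AT1G25500 (0.93), LOX4 (0.91), PP2-B11 (0.90) and JAZ8 (0.90). Among 18826 genes ranked by this r, JAZ5 was at rank 23, JAZ6 at 88, JAZ10 at 147, JAZ1 at 160 and JAZ2 at 592, while JAZ3 and JAZ9 were at 2529 and 2929. JAZ4 was at 15174 with r = -0.38. The libraries share a group and a depth within this measure, so that r describes these 16 libraries and carries no test.

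In the Ler and lug libraries the comparison asked whether JAZ transcripts depend on LUG. Of the 10 members, 7 had enough counts to be tested, and 0 were called, against 0.414% of 17643 tested genes, with 0 at an unadjusted p under 0.05 in edgeR and 0 called by DESeq2. All 7 had lower estimates in lug, from -0.84 to -0.38, with a median of -0.58 (all genes 0.01), and on the TPM scale the median gene was shifted by -0.12. Single libraries stood apart here too. Ler replicate 1 was the highest of its group for 6 of the 7 members with a mean of at least 1 TPM (16.6% of all genes), and lug replicate 3 was the lowest for 6 of 7 (52.1% of all genes) and for 14 of 16 biosynthesis genes. Without Ler replicate 1 the median was -0.34 with 1 of 7 estimates above 0, and without lug replicate 3 it was -0.38 with 6 members tested. JAZ9 stood at 119, 17.3 and 51.2 TPM in Ler and at 30.3, 72.8 and 24.2 TPM in lug. The 3 Ler libraries enclosed all 3 lug libraries, and the estimate was -0.50 ± 0.72. JAZ1 stood at 17.5, 11.8 and 13.4 TPM in Ler and at 7.52, 12.99 and 2.11 TPM in lug, with overlap through lug replicate 2 and an estimate of -0.84 ± 0.55 with an adjusted p of 0.805 in edgeR. JAZ6 stood at 75.1, 35.0 and 70.7 TPM in Ler and at 39.0, 43.9 and 29.2 TPM in lug, also overlapping, with -0.58 ± 0.32 and an adjusted p of 0.777. JAZ4, JAZ7 and JAZ8 were not tested. JAZ8 was lower in all lug than in all Ler libraries, as 11.6% of all tested genes were, at 2 counts or fewer in each library, and JAZ7 lay between 1.38 and 8.47 TPM in Ler and between 0.14 and 1.71 TPM in lug. MYC2 had an estimate of -1.66 ± 0.33 with an adjusted p of 0.175 and no overlap between the groups. The touch and wound markers were already at a summed 188 to 321 TPM in Ler and 238 to 555 TPM in lug, and the floral markers at 9.69 to 32.8 and 32.6 to 99.3 TPM. Their part in the JAZ values was not tested. Levels in these tables were not compared by test with those of the Col-0 libraries, which differ in accession and in the annotation counted.

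TPL and LUG fused to a FLAG tag were mapped by ChIP-seq in WT and morchex, with 1 library for each factor and genotype, so these lists are described without a test. The lists held 10267 TPL peaks in WT, 12224 in morchex, 2721 LUG peaks in WT and 5351 in morchex. Which control entered the peak calling is not given in the sources used here. In both lists labelled TPL the peak ranked first covered 94 and 93.6% of the gene of the close TPL relative TPR1, while peaks covered 16.1 and 15.2% of the TPL gene. In the LUG lists a peak covered 94.6 and 94.8% of the LUG gene. The lists are named here as they are labelled.

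The window counted for each gene reached 1000 bp before its start and 200 bp past it, and a gene counted when it held a summit. TPL had such a summit at 6 of 10 members in WT (JAZ1, JAZ2, JAZ3, JAZ5, JAZ6 and JAZ7), where 14.2% of 32835 genes had one, and at 8 of 10 in morchex (these and JAZ8 and JAZ10), where 19.1% of genes had one. LUG had a summit at 4 of 10 members in WT (JAZ1, JAZ3, JAZ5 and JAZ6; 3.56% of genes) and at 5 of 10 in morchex (these and JAZ2; 7.44% of genes). With any peak base in the window counted, TPL reached 8 of 10 members in WT (20.5% of genes) and 9 of 10 in morchex (25.6%). Counted so, JAZ9 and JAZ10 were among them in both genotypes. LUG then reached 5 of 10 in WT (4.2% of genes) and 6 of 10 in morchex (8.81%), with JAZ9 added. The lists of morchex are longer, and the difference between the genotypes was not tested. The summits added in morchex were weak for TPL, with a −log10 q of 2.9 at JAZ8 and 2.0 at JAZ10. For LUG the one nearest the start of JAZ2 reached 5.9.

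JAZ3 had the strongest TPL peaks near a member's start, with a summit 125 bp upstream in WT (4.73-fold enrichment, −log10 q of 29.4) and 143 bp upstream in morchex (6.30-fold, 56.3). Both summits lie beside the 2 G-boxes printed in capitals above. JAZ6 had summits 234 and 130 bp upstream (3.63-fold and 4.89-fold). JAZ2 had summits 64 and 99 bp upstream, the first of them inside its G-box, at 3.53-fold and 3.73-fold. JAZ5 had summits at -215 and -481 bp from its start (3.09-fold and 4.08-fold), and in morchex its enrichment was above that of JAZ2. JAZ7 had summits 24 bp downstream and 1 bp upstream of its start (3.05-fold and 3.18-fold). JAZ1 had summits of both factors further out, 708 to 730 bp upstream, with a −log10 q for TPL of 7.2 in WT and 15.3 in morchex. A second TPL peak spanned the JAZ1 start in both genotypes, with summits 493 and 482 bp downstream. Its enrichment was 2.05-fold in both, with a −log10 q of 6.5 in WT and 7.1 in morchex. Within 100 bp of the summit, 12.6% of TPL peaks in WT and 13.7% in morchex held a G-box, and 16.5 and 14.7% of LUG peaks did.

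JAZ9 and JAZ10 had strong peaks with summits outside the counted window. At JAZ9 the TPL summits lay 279 and 350 bp downstream of the start, just beyond the limit of 200 bp, and again 3279 and 3261 bp downstream, past the end of the gene, with a −log10 q of 27.4 and 26.5 in WT and 43.8 and 60.7 in morchex. LUG summits lay 329 and 306 bp downstream of the JAZ9 start with a −log10 q of 4.1 and 10.1. At JAZ10 the summits of both factors lay at the 3′ end of the gene, 2337 bp from the start for TPL in both genotypes and 2347 and 2345 bp for LUG, in a gene of 2292 bp. The LUG peak there was rank 6 of 2721 in WT (5.57-fold, −log10 q of 63.5) and rank 6 of 5351 in morchex (6.46-fold, 71.6), and the TPL peak was rank 253 of 10267 and rank 266 of 12224. The nearest start of another gene, AT5G13225 on the minus strand, lies 952 bp from the LUG summit in WT. JAZ4 had no peak of either factor in its gene or in the 3000 bp upstream.

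The bases around 2 LUG summits are shown, one at the strongest peak of any member and the other in the counted window of JAZ1. Both factors had summits close together at each of these places. The first is 101 bases centred on the JAZ10 summit in WT, chr5:4221083-4221183, which begins just past the annotated end of the gene. The second is 101 bases centred on the LUG summit upstream of JAZ1 in WT, chr1:6621011-6621111. Both are on the plus strand of TAIR10.1, and capitals mark a T/G-box.
JAZ10 downstream summit: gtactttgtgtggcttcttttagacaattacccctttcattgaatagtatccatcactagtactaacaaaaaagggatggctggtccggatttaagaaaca
JAZ1 upstream summit: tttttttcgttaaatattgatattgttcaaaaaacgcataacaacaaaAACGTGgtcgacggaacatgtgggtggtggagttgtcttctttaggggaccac
The JAZ10 stretch holds neither a G-box nor a T/G-box, and the JAZ1 stretch holds 1 T/G-box, with the summit inside it. A T/G-box lay within 100 bp of 7.57% of LUG summits in WT.

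**Figure D4:**
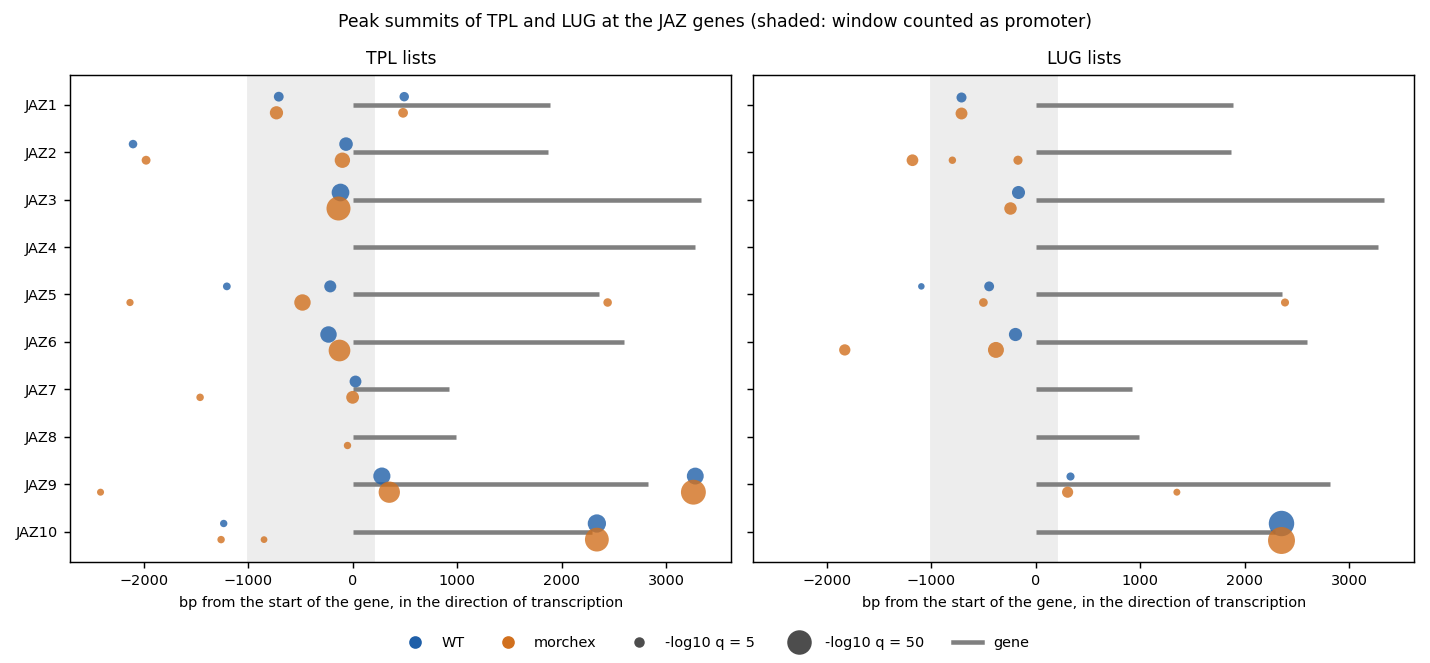
Distance in bp of each TPL (left) and LUG (right) peak summit from the start of each JAZ gene, in WT (blue) and morchex (orange), with the area of a point growing with −log10 q, the gene drawn as a grey bar and the window counted as promoter shaded. The largest LUG points lie at the 3′ end of JAZ10, outside the shaded window, and JAZ4 has none.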

How the data were processed

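RNA-seq libraries (16 of the heat series, 6 of Ler and lug) and 4 ChIP-seq peak lists were used. Per the labels and the study's methods, reads were mapped by the authors with Bowtie2 2.1.0 against TAIR10 and RSEM estimated expression. The deposited gene tables hold the expected count and the TPM that the authors obtained from RSEM for each gene. The deposited peak lists are MACS2 2.1.1 narrowPeak files of 1 library each, with a fold enrichment and a −log10 q per peak by the authors; ChIP reads were kept where they mapped uniquely and duplicates were removed with SAMtools. Columns of transcript and effective length were not tested.

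Expected counts, rounded to integers, entered edgeR 4.0.16 (R 4.3.3; TMM, filterByExpr by group, quasi-likelihood test), in 1 fit of 6 groups for the heat series and a separate fit for Ler and lug, with p-values adjusted by Benjamini-Hochberg over all tested genes. A gene was called at an adjusted p under 0.05 and a fold change over 2. The study's methods give edgeR and a fold change over 2 with an unadjusted p. Alternatives were DESeq2 1.42.0, limma 3.58.1 on log2(TPM + 1) or log2(TPM + 0.1), no filter, a mean TPM of at least 1, no TMM factor, an unadjusted p, no fold threshold, a replicate block, the groups compared alone, and each library left out. The edgeR step was tested on simulated data. Depth, 8.61 to 25.1 Mcounts per library, limits the low members: JAZ4 and JAZ8 had 39 counts or fewer in each library, and counting intervals cover counting error only.

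Peaks, genes and motifs were placed on the TAIR10.1 RefSeq annotation, whose nuclear chromosomes are those of TAIR10, with Python 3.11.15 and pandas 2.3.3. Sequences are from that assembly. The members and the gene lists were chosen with earlier results of these data known. Named pathway genes were COI1, NINJA, MYC2, MYB21 and MYB24 and, for each list and comparison, up to 4 called genes with the smallest adjusted p. ATAC-seq and other ChIP-seq files of the series were not used here.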

Additional observations from a re-analysis of the deposited data

How the results depend on the processing

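The counts of members called in morchex against WT at T0 and T48, in both interactions and in lug against Ler stayed at 0 in all alternatives (27 for each heat comparison, 15 for lug). For morchex against WT at T30 the count ranged from 0 to 1 over fits without 1 library. For T30 in WT (2 called) it ranged from 0 to 2 and for T30 in morchex (2 called) from 0 to 5, while for T48 it ranged from 0 to 2 in WT (1 called) and from 0 to 5 in morchex (3 called). DESeq2 called 1 member at T30 in WT, 0 at T30 in morchex, 0 at T48 in WT and 0 at T48 in morchex, but gave no adjusted p for JAZ7 and JAZ10 there. An unadjusted p called 4 at T30 in morchex and 2 at T48 in WT. Without the TMM factor 1 was called at T30 in WT. Limma called 0 at T30 in WT and 1 at T30 in morchex on either pseudocount or with a mean TPM of at least 1, 2 at T48 in WT with the pseudocount of 0.1, and 5 at T48 in morchex with the pseudocount of 1, with or without that minimum. Fits to the groups compared alone called 0 at T30 in WT and 5 at T48 in morchex. Without WT T30 replicate 3 and morchex T0 replicate 2 together, a setting chosen after seeing the data, 7 members were called at T30 in morchex, 2 at T48 in WT, 5 at T48 in morchex and 1 (JAZ7) in morchex against WT at T30. No share of all tested genes is given for this setting or for the other alternative fits. Of the values for single called members, 155 kept their call, 55 lost it with the same direction, and none reversed. At T30 in WT an equal count hid other genes, since without WT T30 replicate 3 the 2 members called were JAZ6 and JAZ9. With a −log10 q of at least 10, LUG summits remained at 2 of 10 members in WT (0.901% of all genes) and 3 in morchex (2.03%), and TPL summits at 5 in WT (3.6%) and 6 in morchex (7.33%).

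With a replicate block, 1 member was called at T30 in WT (JAZ1 was lost, adjusted p of 0.0662) and 1 at T48 in morchex (JAZ8 and JAZ10 were lost, adjusted p of 0.0954 and 0.0768), and the block changed no other count. The numbers do not pair the libraries: deviations of libraries with the same number correlated at a median of 0.003 (-0.165 to 0.15) in the heat series and -0.251 in Ler and lug.

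Limits are the 2 morchex libraries at T30 and at T48, the wide spread of the JAZ transcripts between replicates, counts of 39 or fewer for JAZ4 and JAZ8, and 1 ChIP library for each factor and genotype.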
